A study of Mus musculus with 157 samples.

Results

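Co-variation was described for 9 genes of the glucocorticoid and zinc responses in the livers of 157 male mice, out of 23176 genes measured. The genes were taken from a list of identifiers, and all 9 were in the deposited table. They were Fkbp5 (ENSMUSG00000024222_at, chromosome 17), Tsc22d3 (ENSMUSG00000031431_at, chromosome X), Sgk1 (ENSMUSG00000019970_at, chromosome 10), Zbtb16 (ENSMUSG00000066687_at, chromosome 9) and Nr3c1 (ENSMUSG00000024431_at, chromosome 18). With them were Mt1 and Mt2 (ENSMUSG00000031765_at and ENSMUSG00000031762_at, chromosome 8), Slc30a1 (ENSMUSG00000037434_at, chromosome 1) and Mtf1 (ENSMUSG00000028890_at, chromosome 4). Each mouse came from a different pre-Collaborative Cross strain, a partly inbred line bred by sister-brother mating. The 8 founder strains were the wild-derived CAST/Ei, PWK/Ph and WSB/Ei and the laboratory strains C57BL/6J, NOD/LtJ, A/J, NZO/H1LtJ and 129S1/SvImJ. The mice ate a Purina Formulab chow, were 12 to 15 weeks old when killed and had all passed through a programme with alcohol exposure and exercise interventions; the labels do not say which mouse had which intervention, so no treatment was compared.

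Glucocorticoids enter the liver cell and bind the receptor encoded by Nr3c1, which then acts on genes that carry its response element. Fkbp5 encodes a co-chaperone of Hsp90 that lowers the affinity of the receptor for hormone. Tsc22d3 encodes the leucine zipper protein GILZ, Sgk1 a kinase induced by serum and glucocorticoids, and Zbtb16 the zinc finger transcription factor PLZF. Mt1 and Mt2 encode metallothioneins, small cysteine-rich proteins that bind zinc and copper. They are induced in liver both by zinc, through the zinc-sensing transcription factor encoded by Mtf1, and by glucocorticoids. Slc30a1 encodes the zinc exporter ZnT1, another target of Mtf1.

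A value in the deposited table is a normal score: it places a mouse among the 157 for 1 gene, from -2.49 for the lowest to 2.49 for the highest. It holds no expression level and no fold change, so genes cannot be compared in level and liver marker genes cannot be checked by it. In bulk liver, fewer cells of a type and less RNA per cell cannot be told apart. Mice were killed on 18 dates, which formed 10 kill cohorts of 5 to 37 mice over 282 days, and arrays were hybridized in 8 batches by the batch numbers of the labels, which were used here; the series design text speaks of 6. With 1 mouse per strain, strain, individual history and array error are all part of the spread between mice.

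The promoter letters of the zinc genes are shown because they carry the metal response element, the site read by the Mtf1 protein, and the Sgk1 window because it carries a glucocorticoid response element. Windows of 300 bases, 250 before and 50 after a start site, came from RefSeq on GRCm38.p6, where 7 of the 9 genes had an entry and Zbtb16 and Nr3c1 are named only. Both strands were searched for the metal response element core, TGCACNC or TGCGCNC, and for the glucocorticoid response element, AGAACA and TGTTCT with any 3 bases between them. Capitals mark the metal core in the first 3 windows and the glucocorticoid element in the Sgk1 window, each read 5′ to 3′ on the strand given.
Mt1, chr8:94178839-94179138, plus strand: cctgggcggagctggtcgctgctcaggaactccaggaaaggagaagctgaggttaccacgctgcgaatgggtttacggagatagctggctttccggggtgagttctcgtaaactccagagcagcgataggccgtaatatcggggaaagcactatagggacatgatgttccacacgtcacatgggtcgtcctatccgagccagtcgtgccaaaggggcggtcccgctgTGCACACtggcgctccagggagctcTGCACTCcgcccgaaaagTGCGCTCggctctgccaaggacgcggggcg
Mt2, chr8:94172368-94172667, plus strand: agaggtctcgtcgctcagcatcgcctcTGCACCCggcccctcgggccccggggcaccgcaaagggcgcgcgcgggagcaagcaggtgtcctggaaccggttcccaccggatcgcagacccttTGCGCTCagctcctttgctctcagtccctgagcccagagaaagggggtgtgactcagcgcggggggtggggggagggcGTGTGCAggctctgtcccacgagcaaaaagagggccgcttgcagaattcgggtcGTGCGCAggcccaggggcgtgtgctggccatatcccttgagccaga
Slc30a1, chr1:191906531-191906830, plus strand: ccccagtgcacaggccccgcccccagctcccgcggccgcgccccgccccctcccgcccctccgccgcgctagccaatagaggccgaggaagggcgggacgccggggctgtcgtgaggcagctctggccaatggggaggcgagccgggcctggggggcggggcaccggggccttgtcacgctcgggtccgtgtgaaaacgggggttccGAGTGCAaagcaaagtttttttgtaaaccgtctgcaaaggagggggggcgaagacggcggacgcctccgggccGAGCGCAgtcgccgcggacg
Sgk1, chr10:21993640-21993939, plus strand: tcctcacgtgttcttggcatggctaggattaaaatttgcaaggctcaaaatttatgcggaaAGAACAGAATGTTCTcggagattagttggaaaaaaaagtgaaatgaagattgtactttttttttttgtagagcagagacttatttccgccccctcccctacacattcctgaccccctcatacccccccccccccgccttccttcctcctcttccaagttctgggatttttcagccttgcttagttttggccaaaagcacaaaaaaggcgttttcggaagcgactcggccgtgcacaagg

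The metal core was present 4 times in the Mt2 window, 3 times in that of Mt1 and 2 times in that of Slc30a1. Of all 32851 promoter windows, 25.7% held it at least 1 time, 7.11% at least 2 times, 1.97% at least 3 times and 0.517% at least 4 times. Counted from the start site listed in RefSeq for the window, the matches began at -23, 3 and 21 in Mt1 and at -223, -128, -50 and 5 in Mt2. Where transcription starts in these livers was not tested, and bases outside the windows were not searched. The windows of Fkbp5, Tsc22d3 and Mtf1 held no match to these letters, and 1 of the 6 Sgk1 windows, another than the one shown, held 1. The glucocorticoid element occurred in 3 of the 32851 windows, 0.00913%, and 1 of them was the Sgk1 window, at -189. A shorter form, GNACA and TGTNC with the same spacing, which lies inside the full element, was found in 0.475% of windows, among them the same Sgk1 window and, at -94, the Mt1 window. Mt1 and Mt2 lie next to each other on chromosome 8, with 0 genes listed between them.

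The called ties across mice linked every gene of the list but Mtf1. Fkbp5, Tsc22d3 and Zbtb16 were tied to each other, with Sgk1 tied to Tsc22d3 alone of these, and Mt1, Mt2 and Slc30a1 were tied to each other. Of the glucocorticoid genes, Fkbp5 was tied to both metallothioneins and Zbtb16 to Mt2. The correlation of Fkbp5 with each metallothionein (r = 0.507) was above that with Tsc22d3 (r = 0.36), but the difference between these correlations was not tested. Nr3c1 was tied to Tsc22d3 alone, negatively. Correlations were taken after each hybridization batch was set to a mean of 0, and a pair was called when its adjusted p was under 0.05 over all 23175 other genes, whichever gene of the pair was the predictor. The larger p of the pair is given. Of the 36 pairs, 11 were called, 10 positive and 1 negative, and 18 had an unadjusted p under 0.05. As background, the share of all other genes called in either direction was 6.77% with Fkbp5, 2.42% with Tsc22d3, 0.98% with Sgk1, 3.6% with Zbtb16, 25.8% with Nr3c1, 2.77% with Mt1, 2.46% with Mt2, 10.5% with Slc30a1 and 4.34% with Mtf1. Positive ties alone made up 4.54% with Fkbp5, 1.29% with Tsc22d3, 0.734% with Sgk1, 2.67% with Zbtb16, 7.34% with Nr3c1, 1.53% with Mt1, 1.43% with Mt2, 7.17% with Slc30a1 and 3.74% with Mtf1.

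**Figure D1:**
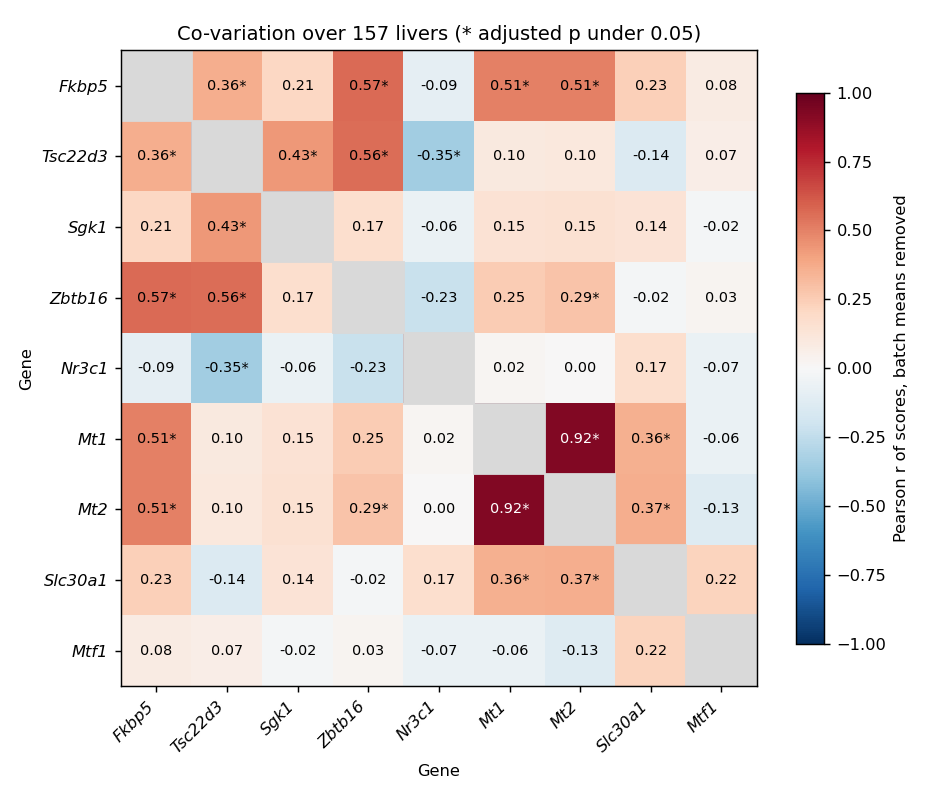
Pearson correlation of scores over 157 livers for each pair of the 9 genes, with batch means removed; colour and printed value give r, and an asterisk marks the called pairs. The Mt1 and Mt2 cell is the darkest at 0.92, and the Mtf1 row holds no asterisk.

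Among the glucocorticoid genes, the 2 highest correlations were those of Zbtb16. It rose and fell with Fkbp5 (r = 0.566, 95% interval 0.446 to 0.666, adjusted p = 4.98e-11) and with Tsc22d3 (r = 0.557, 0.436 to 0.658, adjusted p = 1.32e-10). Ranked by positive r among 23175 genes, Fkbp5 stood 19th and Tsc22d3 22nd for Zbtb16. The mouse with the highest Fkbp5 score, replicate 31 of kill cohort 7, also had the highest Zbtb16 score, 2.493 for both, and a Tsc22d3 score of 1.349. Of the 16 highest mice for Tsc22d3, 9 were among the 16 highest for Zbtb16, and 7 of the 16 lowest were shared.

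Fkbp5 and Tsc22d3 were tied more loosely to each other (r = 0.36, 0.212 to 0.492, adjusted p = 0.000823). With Tsc22d3 and Zbtb16 fitted together, the Zbtb16 term on Fkbp5 was 0.523 ± 0.0806 score units per unit (SE, adjusted p = 1.05e-06) and the Tsc22d3 term was 0.0644 ± 0.0814 (adjusted p = 0.831). The share of genes called in that fit was 3.08% for Zbtb16 and 2.2% for Tsc22d3. Sgk1 gave the other order: its scores followed Tsc22d3 (r = 0.432, 0.292 to 0.554, adjusted p = 6.99e-05), the gene ranked 9th for it. In the same fit the Tsc22d3 term on Sgk1 was 0.48 ± 0.0876 (adjusted p = 6.13e-05) and the Zbtb16 term -0.099 ± 0.0867 (adjusted p = 0.674). Sgk1 was in no other called pair, and its r with Fkbp5 was 0.207 (adjusted p = 0.223). The differences between the Tsc22d3 and Zbtb16 terms were not tested.

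Nr3c1, the receptor gene, was in the only negative called pair. Its scores fell as those of Tsc22d3 rose (r = -0.351, -0.484 to -0.202, adjusted p = 0.0013); negative ties were called for 1.13% of genes with Tsc22d3 and 18.4% with Nr3c1. Of the 16 mice at either end for each gene, 8 lay at opposite ends of the 2 orders, and 1 was shared at the highest and 1 at the lowest end. The lowest Tsc22d3 mouse, replicate 6 of kill cohort 5, scored -2.493 for Tsc22d3 and 1.39 for Nr3c1, and the highest, replicate 11 of kill cohort 9, scored 2.493 and -1.581. Nr3c1 and Zbtb16 had r = -0.226 (adjusted p = 0.104), and Nr3c1 and Fkbp5 r = -0.0887, with an interval of -0.245 to 0.0726. Nr3c1 was also tied to much of the liver transcriptome: 5975 genes were called with it, 1700 positive and 4275 negative. That count depended on the setting: it was 359 with the first principal component of all genes added, 2584 without hybridization batch 6, and 6407 with array medians subtracted, then 3454 positive and 2953 negative. Its correlation with that component, which held 12.1% of the variance, was 0.43, and that with the median score of each array was -0.404. The pair with Tsc22d3 had r = -0.364 with the component added (adjusted p = 0.00371) and r = -0.283, the value nearest 0 of the 23 alternatives, with array medians subtracted (adjusted p = 0.028). It was not called without kill cohort 7 (r = -0.298, adjusted p = 0.0727).

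**Figure D2:**
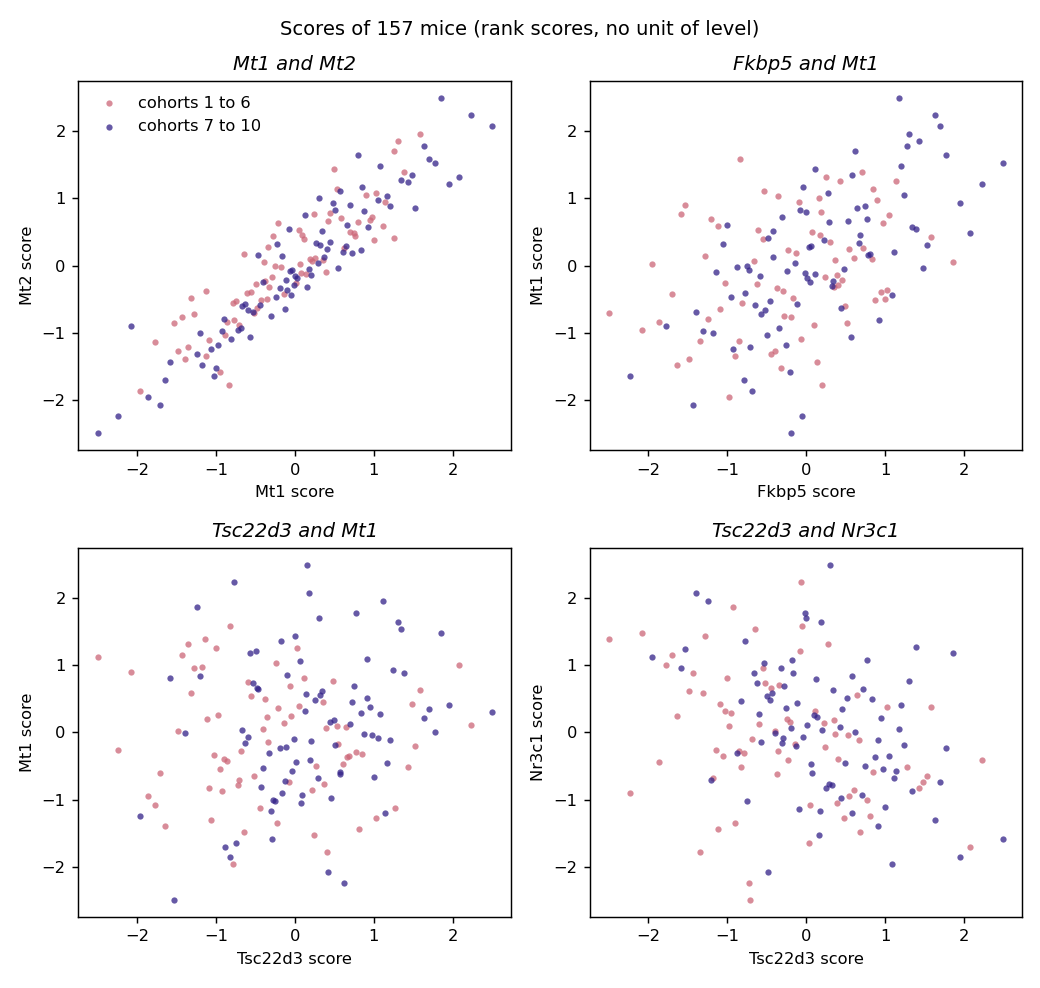
Scores of 157 mice for 4 pairs, 1 point per mouse, with kill cohorts 1 to 6 in red and 7 to 10 in blue; axes are rank scores with no unit of level. Mt1 and Mt2 lie along a narrow band (r = 0.924), Fkbp5 and Mt1 along a broad rising one (r = 0.507), Tsc22d3 and Mt1 show no clear slope (r = 0.1), and Tsc22d3 and Nr3c1 slope downwards (r = -0.351).

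The metallothioneins had the highest correlation of the 36 pairs. Mt1 and Mt2 had r = 0.924 (0.896 to 0.944, adjusted p = 2.93e-59), and each was the closest of 23175 genes to the other. Replicate 3 of kill cohort 7 was the lowest mouse for both, at -2.493. The 16 highest mice shared 12 members and the 16 lowest shared 9, and no mouse was high for one and low for the other. The size of the difference between the 2 scores had a median of 0.242 and was under 0.5 in 120 of the 157 mice. It was widest, at 1.17, in replicate 4 of kill cohort 10, which scored -2.075 for Mt1 and -0.902 for Mt2. The 2 genes are related in sequence, and whether probes of one also measure the other was not tested.

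Slc30a1, the exporter, rose and fell with both metallothioneins. Its r was 0.357 with Mt1 (0.209 to 0.489, adjusted p = 0.0017) and 0.366 with Mt2 (0.219 to 0.497, adjusted p = 0.00162). Of the 7 genes with a window, these 3 held the metal core at least 2 times, as did 7.11% of all windows. Whether the cores bear on the correlations was not tested. Ranked by r, Slc30a1 stood 60th for Mt1 and 41st for Mt2. The lowest Slc30a1 mouse, replicate 3 of kill cohort 9, was also the lowest for Sgk1 and scored -1.639 for Mt1 and -1.703 for Mt2.

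Mtf1 was in no called pair. Its r was -0.0645 with Mt1 (-0.222 to 0.0968) and -0.127 with Mt2 (-0.282 to 0.034), with adjusted p-values of 0.838 and 0.554. With Slc30a1 its r was 0.222 (0.064 to 0.369, adjusted p = 0.0913). Those are scores of its mRNA, and the activity of the Mtf1 protein was not measured.

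Between the glucocorticoid and the metal genes, the highest correlations were those of Fkbp5 with the metallothioneins. Its r was 0.507 with Mt1 (0.377 to 0.617, adjusted p = 2.02e-07) and 0.507 with Mt2 (adjusted p = 4.36e-07). Only 3 of 23175 genes, Mt2 among them, had a higher r with Mt1 than Fkbp5 had, and for Mt2 only Mt1 had. Seen from Fkbp5, the metallothioneins stood 58th and 60th. The highest Mt1 mouse, replicate 35 of kill cohort 7, scored 2.493 for Mt1, 2.075 for Mt2, 1.174 for Fkbp5 and 0.159 for Tsc22d3. The other end went differently: the lowest mouse for both metallothioneins, replicate 3 of kill cohort 7, scored -0.184 for Fkbp5 and -1.528 for Tsc22d3. Of the 16 highest mice for Fkbp5, 7 were among the 16 highest for Mt1, and 4 of the 16 lowest were shared. Zbtb16 had a lower r with Mt2 (0.289, 0.135 to 0.429, adjusted p = 0.0236) and with Mt1 was not called (0.254, adjusted p = 0.0564). The call with Mt2 held in 15 of 23 alternatives and was lost by Spearman correlation, without kill cohort 1, 7 or 8, and without hybridization batch 1, 2, 5 or 8 (adjusted p up to 0.144). Tsc22d3 had r = 0.1 with Mt1 (-0.0612 to 0.256) and 0.103 with Mt2, neither called. The receptor gene had r = 0.0162 with Mt1 (-0.144 to 0.176).

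To compare the glucocorticoid genes directly, all 5 were fitted at the same time with batch, a fit added after the correlations were seen. The Fkbp5 term was 0.533 ± 0.0883 on Mt1 (SE, adjusted p = 1.11e-05), 0.504 ± 0.0882 on Mt2 (adjusted p = 4.19e-05) and 0.343 ± 0.0936 on Slc30a1 (adjusted p = 0.0193), while the share of genes called for Fkbp5 was 3.07%. On Mtf1 it was 0.0993 ± 0.0939 (adjusted p = 0.743). Taken alone, Fkbp5 and Slc30a1 were not a called pair (r = 0.235, adjusted p = 0.0545), though they were under some alternatives, such as kill cohort added. The Tsc22d3 terms were below 0, at -0.131 ± 0.0991 on Mt1, -0.168 ± 0.0991 on Mt2 and -0.275 ± 0.105 on Slc30a1, and none was called (adjusted p = 0.654, 0.506 and 0.183). No term of Sgk1, Zbtb16 or Nr3c1 was called on any of the 4 metal genes. Of all genes, 1.92% were called for the Tsc22d3 term, 0.816% for Sgk1, 0.794% for Zbtb16 and 26.0% for Nr3c1.

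Differences of the Fkbp5 term from those of Sgk1, Zbtb16 and Nr3c1 were not tested in that fit. Only the difference between the Fkbp5 and Tsc22d3 terms was, and it was picked with the correlations known. It was 0.665 ± 0.134 on Mt1 (SE, adjusted p = 0.000362), 0.672 ± 0.134 on Mt2 (adjusted p = 0.000309) and 0.618 ± 0.143 on Slc30a1 (adjusted p = 0.00201), and 5.77% of genes were called. With kill cohort added to the fit, the Slc30a1 difference was 0.455 and no longer called (adjusted p = 0.0742). Fitted with Fkbp5 alone, Zbtb16 had a term of 0.00322 ± 0.0863 on Mt2 (adjusted p = 1.0), and the difference between the Fkbp5 and Zbtb16 terms on Mt1, 0.59 ± 0.153, missed the threshold (adjusted p = 0.0584). On Mt2 this difference was 0.509 ± 0.154 and on Slc30a1 0.589 ± 0.168, and neither was called (adjusted p = 0.145 and 0.109). Shares of genes called in that fit were 3.01% for Fkbp5, 0.742% for Zbtb16 and 0.263% for the difference.

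Of the metal genes taken as predictors, Mt1 had called terms on Fkbp5 and Zbtb16. With Mt1, Slc30a1 and Mtf1 fitted together, the Mt1 term on Fkbp5 was 0.497 ± 0.0756 (SE, adjusted p = 4.88e-06), the Slc30a1 term 0.0312 ± 0.0783 (adjusted p = 0.858) and the Mtf1 term 0.116 ± 0.0793 (adjusted p = 0.561); the differences between these terms were not tested. The Mt1 term on Zbtb16 was also called in this fit, at 0.314 ± 0.086 (adjusted p = 0.0306), although the pair alone was not. Of all genes, 1.71%, 5.24% and 1.48% were called for these terms. With Mt1 and Mt2 fitted together, neither had a called term on any of the other genes of the list, and 0.117% and 0.0604% of all genes were called. So close a pair (r = 0.924) leaves the 2 terms hard to separate. On Fkbp5 both had an SE of 0.182, against 0.0756 for Mt1 in the fit above. Whether either gene has a tie of its own cannot be read from this fit.

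**Figure D3:**
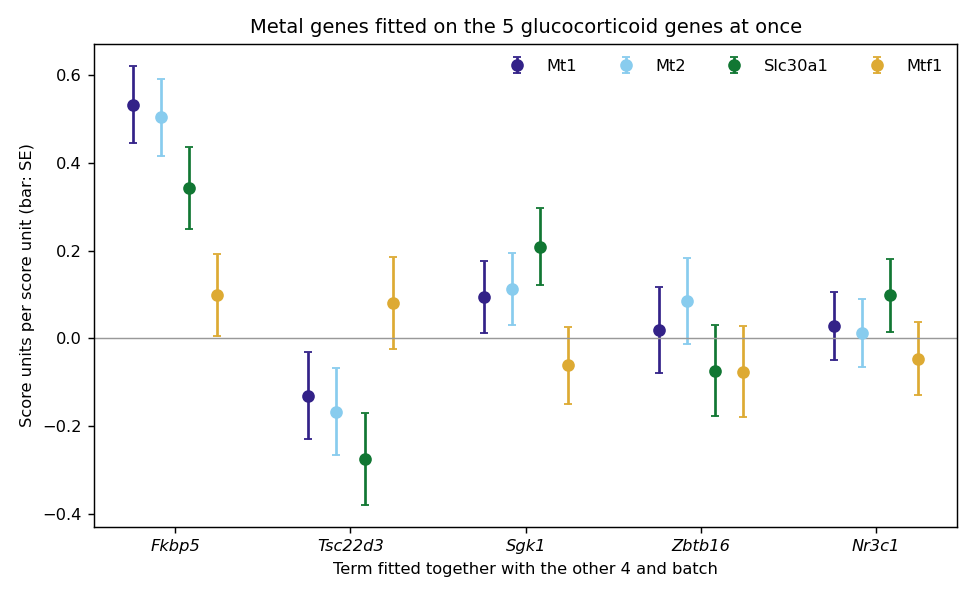
Terms of the 5 glucocorticoid genes fitted together with batch, for Mt1, Mt2, Slc30a1 and Mtf1, in score units per score unit; points are estimates and bars 1 SE. The Fkbp5 terms on Mt1, Mt2 and Slc30a1 lie between 0.343 and 0.533, and the Tsc22d3 terms on the same genes are below 0.

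All 11 called pairs had the same sign in 8 of 8 hybridization batches of 11 to 24 arrays. Mt1 and Mt2 had r from 0.875 to 0.981 within batches, Fkbp5 and Zbtb16 from 0.475 to 0.733, and Fkbp5 and Mt1 from 0.29 to 0.661. The looser pairs ranged down to near 0: Mt1 and Slc30a1 had 0.0412 in the lowest batch, Fkbp5 and Tsc22d3 0.0309, and Tsc22d3 and Nr3c1 -0.00387 in the batch nearest 0. Within the 9 kill cohorts of 6 or more mice, 7 of the 11 pairs kept their sign in every cohort. Fkbp5 and Mt1 had -0.00418 in kill cohort 5, of 6 mice, where Mt1 and Slc30a1 had -0.232. Zbtb16 and Mt2 had -0.513 in kill cohort 6, of 10 mice, and 0.638 in kill cohort 9. Mt2 and Slc30a1 had -0.238 in the lowest cohort.

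**Figure D4:**
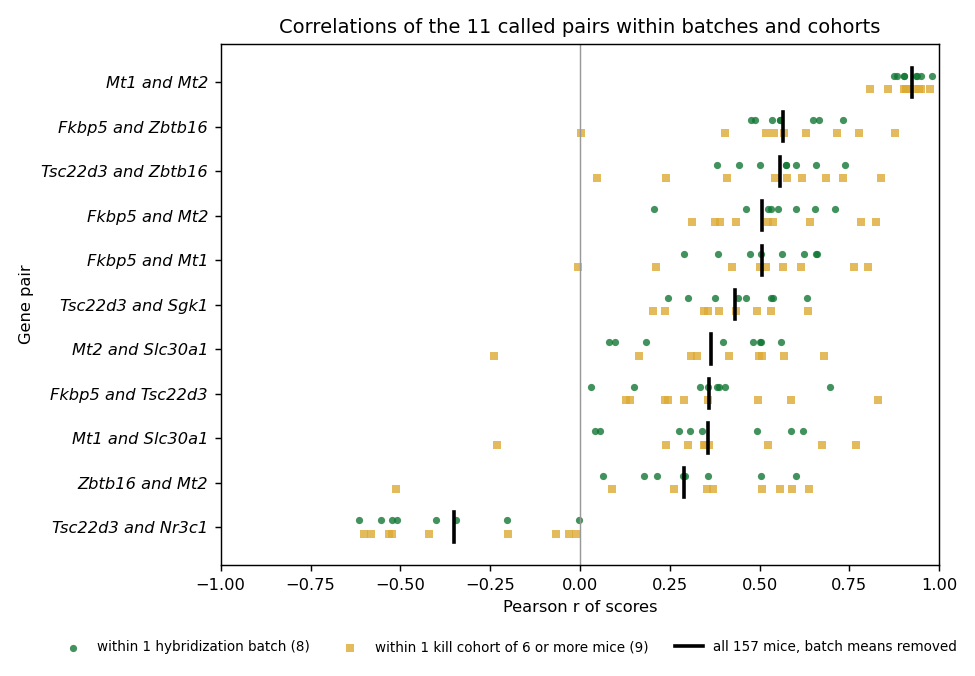
Pearson r of each called pair within each of 8 hybridization batches (green circles) and each of 9 kill cohorts of 6 or more mice (yellow squares), beside the value over all 157 mice (black bar). All batch values lie on the side of 0 of their black bar, and the cohort values spread more widely.

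Without removal of batch means the called pairs were close to the same. Deposited scores gave Pearson r and Spearman rho of 0.917 and 0.922 for Mt1 and Mt2, 0.558 and 0.542 for Fkbp5 and Zbtb16, 0.558 and 0.534 for Tsc22d3 and Zbtb16, and 0.51 and 0.502 for Fkbp5 and Mt1. For Tsc22d3 and Sgk1 they were 0.433 and 0.445, and for Tsc22d3 and Nr3c1 -0.313 and -0.325. In 9 of the 11 pairs the permutation p of both was 1e-05 to 2e-05, the former the smallest that 100000 permutations can give. It was 0.00011 and 6e-05 for Tsc22d3 and Nr3c1 and 0.00021 and 0.00053 for Zbtb16 and Mt2. Without the 2 mice farthest from the median, r was 0.911 for Mt1 and Mt2, 0.499 for Fkbp5 and Mt1, 0.269 for Zbtb16 and Mt2 and -0.279 for Tsc22d3 and Nr3c1.

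Between kill cohorts, 2 of the 9 genes differed by limma's F test with batch as a covariate, Tsc22d3 (adjusted p = 0.0036) and Fkbp5 (adjusted p = 0.0494), while 2.58% of all genes were called. At an unadjusted p under 0.05 there were 3, against 17.0% of all genes. Both are glucocorticoid genes. Both were low in kill cohort 2, and their lowest and highest cohorts were not the same. Fkbp5 was lowest in kill cohort 2, where the 21 mice ran from -2.08 to 0.951 with a median of -1.11. Tsc22d3 had its second lowest median there, -0.684. Fkbp5 had its highest median in kill cohort 9, where 12 mice ran from -2.24 to 1.64 around 0.639. Its highest mean, 0.631, was in kill cohort 5, against 0.298 in kill cohort 9. Tsc22d3 was lowest in kill cohort 5, where 6 mice ran from -2.49 to -0.399 around -0.989, while Fkbp5 had a median of 0.611 there. Tsc22d3 was highest in kill cohort 8, where 22 mice ran from -0.257 to 1.86 around 0.779, and Fkbp5 had 0.048. For Tsc22d3 the highest mouse of kill cohort 5 was below the lowest of kill cohort 8; for Fkbp5 the cohorts at the ends overlapped. Fkbp5 sat close to the threshold: it was not called without the batch covariate (adjusted p = 0.0699), without kill cohort 1, 7 or 8 (0.0559, 0.11 and 0.088), or without replicate 1, 3 or 5 of kill cohort 4 (0.0509, 0.0504 and 0.0511). With strain-number block added neither gene was called (adjusted p = 0.389 for Fkbp5 and 0.282 for Tsc22d3), nor was any of the 23176 genes, of which 2502 had an unadjusted p under 0.05 by limma's F test. Without kill cohort 8 Tsc22d3 was not called either (adjusted p = 0.081), and the count over all genes was 197 against 598. Strain-number blocks and kill cohorts overlap, and their parts cannot be told apart.

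Slc30a1 had its highest median in kill cohort 5, at 1.13, and its lowest in kill cohort 10, at -0.767, with an unadjusted p of 0.0138 and an adjusted p of 0.166. Nr3c1 was also highest in kill cohort 5, with a median of 0.977 (adjusted p over cohorts = 0.438), the cohort in which Tsc22d3 was lowest. Mt1 and Mt2 did not differ between cohorts past the threshold (adjusted p = 0.58 and 0.804). Their medians ran from -0.645 to 0.476 for Mt1 and from -0.479 to 0.448 for Mt2, highest in kill cohort 9 for both. Adding kill cohort to the correlations left all 11 pairs called, with 12 called in all.

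**Figure D5:**
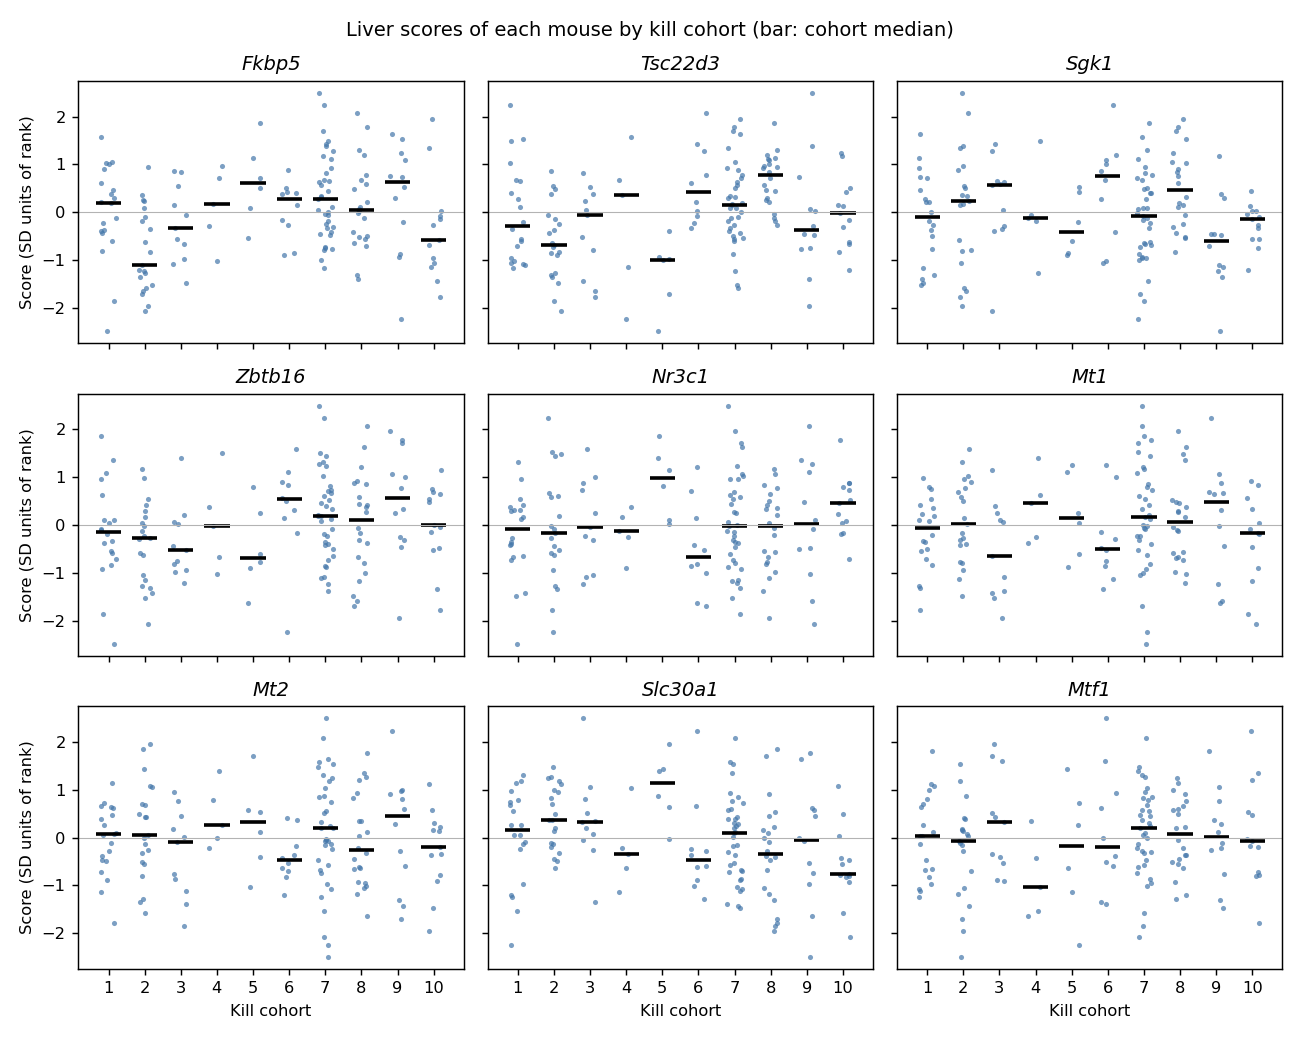
Scores of each of the 157 mice for the 9 genes by kill cohort, in units of about 1 SD; points are mice and bars cohort medians. The Fkbp5 bar is lowest in kill cohort 2 (-1.11) and the Tsc22d3 bar in kill cohort 5 (-0.989), while the Mt1 and Mt2 bars stay closer to 0.

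Along the 282 days none of the 9 genes had a called trend, against 3.52% of all genes, and 3 had an unadjusted p under 0.05, against 15.7%. Tsc22d3 had a slope of 0.252 ± 0.0896 score units per 100 days (SE, adjusted p = 0.0888), Zbtb16 0.241 ± 0.0896 (adjusted p = 0.113) and Slc30a1 -0.252 ± 0.0896 (adjusted p = 0.0897). The ordinary test for each gene, without limma's moderation, also called 0 of the 9. Kill dates within a cohort differed for none of the 9 by limma's F test, with 0.0% of all genes called, and 2, Slc30a1 and Mtf1, had an unadjusted p under 0.05, against 7.57% of all genes. Of the 9, only Mtf1 differed between hybridization batches (adjusted p = 0.0142), with 12.6% of all genes called and 33.0% at an unadjusted p under 0.05. Its median was -0.727 in batch 2 and -0.581 in batch 3 against 0.514 in batch 8.

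Whether the ties changed over time was tested between kill cohorts 1 to 6, of 73 mice, and 7 to 10, of 84 mice, a split chosen after the data were seen. No pair of the 9 genes was called; 0.0% of all genes were called for 8 of the 9 predictors and 0.00431%, 1 gene, for Mtf1. With Fkbp5 as the predictor, 1107 of 23175 genes had an unadjusted p under 0.05. With Mtf1 it was 2047 genes and with Zbtb16 1862. Fkbp5 and Mt1 had r = 0.305 in the earlier mice and 0.625 in the later, with a slope difference of 0.431 ± 0.142 (SE, unadjusted p = 0.00285, adjusted p = 0.915). The smallest unadjusted p among the 9 genes was that of Zbtb16 fitted on Mtf1, with r = -0.275 in the earlier and 0.297 in the later mice and a slope difference of 0.631 ± 0.155 (SE, unadjusted p = 7.54e-05, adjusted p = 0.21). Zbtb16 and Mt1 had r of -0.0611 and 0.413, with a slope difference of 0.521 ± 0.16 for Mt1 fitted on Zbtb16 (adjusted p = 0.398). Mt1 and Mt2 had r of 0.893 and 0.941.

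Outside the 9 genes, no identifier was paired with a symbol, and the 4 with the most extreme r are given by identifier. ENSMUSG00000056091 had the highest r, 0.781 with Fkbp5, and was also called with Zbtb16 (r = 0.527), Mt1 (0.475), Mt2 (0.476), Slc30a1 (0.298) and Tsc22d3 (0.269). ENSMUSG00000001670 had r = 0.755 with Tsc22d3 and was called with Zbtb16 (0.583), Fkbp5 (0.448), Sgk1 (0.447) and Nr3c1 (-0.351), but not with Mt1 (0.202, adjusted p = 0.186). The lowest r belonged to ENSMUSG00000020644 (-0.659) and ENSMUSG00000074063 (-0.586), both with Tsc22d3. The 4 were picked for their r with Fkbp5 or Tsc22d3, so ties to the partners of those genes follow in part from that choice. The first and the second were both called with Fkbp5, Tsc22d3 and Zbtb16. The second had no called tie to Mt1 or Mt2 and the first none to Sgk1, and the difference between them was not tested.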

How the data were processed

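Each mouse's liver RNA was hybridized to 1 Affymetrix array. Per the series design text and the labels, probes were summarised per gene with a custom chip definition (NCBI 37, Ensembl 49); RMA and affy are named, per the submitters' processing notes, without versions. The deposited score equals, within 5e-05 for all 23176 genes, the normal quantile of a mouse's rank divided by the highest rank plus 1; no label records this step. Tests had been planned for log2 values. For rank-based scores the filter on low values is void, and limma's mean-variance trend was left out because every gene has a mean of 0. Precision is limited by the number of arrays.

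Kill dates in the labels at most a few days apart formed 1 kill cohort. Cohort, kill day, date within cohort and batch were tested with limma 3.58.1 in R 4.3.3 (lmFit, eBayes). Pairs were tested with ordinary linear models on scores with batch means removed (Python 3.11.15, numpy 2.4.6, scipy 1.17.1), with Benjamini-Hochberg adjustment over all genes tested. Intervals are 95% Fisher intervals, and permutation tests were two-sided. Scripts were tested on simulated data. p-values rest on the spread between mice. In each limma test the moderation gave 1 spread shared by all 23176 genes, so the trend slopes have the same SE, 0.0896. By the ordinary F test for each gene, without moderation, Tsc22d3 and Fkbp5 were also called between kill cohorts (adjusted p = 0.00156 and 0.0402).

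The 9 genes and the gene lists were chosen with earlier results of these data known, and the genes carry the symbols given with the list of identifiers. The 5 joint fits, the comparison of earlier with later cohorts, the shorter glucocorticoid motif and the choice of promoter windows to print were added after the data were seen; a TATA box search was also run and dropped. Named genes were to be the 9 genes plus, for each, the 3 genes with the highest and the 1 with the lowest r that have a symbol. The reference tables gave a symbol to 0 of the Ensembl identifiers, so this was narrowed to 4 identifiers, and the pathway lists, cell type markers and neighbouring genes were not analysed here.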

Additional observations from a re-analysis of the deposited data

Results flagged for a closer look

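In kill cohort 6, replicate 1 had a Zbtb16 score of -2.24, the lowest of the 10 mice, and the next lowest mouse had -0.175. The gap was 0.54 of the range of the cohort, above the limit for an outlying sample. The same mouse had the highest Mtf1 score of all mice, 2.493, and a Slc30a1 score of 2.236. Of 27 groups of genes and cohorts examined, 1 was picked out, and chance picks out about 1 in 20. Zbtb16 and Mt2 had r = -0.513 in this cohort; the value without this mouse was not computed.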

How the results depend on the processing

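The count of genes called between kill cohorts, 2, was 1 without the batch covariate, 0 with strain-number block added, 1 without kill cohort 1, 1 without kill cohort 7 and 0 without kill cohort 8; without each replicate of kill cohort 4 it was 1 to 2. Over all genes the count, 598, was 563, 0, 183, 284 and 197 under the same 5 alternatives in that order, and 565 to 629 without each replicate of kill cohort 4. Counts for the trend and for dates within cohort were 0, and for batch 1, under the alternatives run for each. Of the 11 pairs, 9 were called under 23 of 23 alternatives. Tsc22d3 and Nr3c1 were not called without kill cohort 7 (r = -0.298, adjusted p = 0.0727). Zbtb16 and Mt2 were called under 15 of 23 (adjusted p from 0.0147 to 0.144), not, for example, by Spearman correlation (rho = 0.264). No value changed sign. The number of pairs called ran from 9 without kill cohort 7 to 15 with array medians subtracted. No paired analysis was possible because the labels give no replicate numbers that tie mice of different cohorts together. The filter on low values, the gene lists and the neighbouring genes were not run, since rank scores and unpaired identifiers give them no value.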
